A study of Rattus norvegicus with 16 samples.

Results

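The genes described encode 34 plasma proteins of rat hepatocytes, 18 of blood coagulation and fibrinolysis and 16 of the complement system. They were taken as a named list and found on the array by the RefSeq accession of each probe. For 29 of the 34 genes, 15 of coagulation and 14 of complement, an accession could be matched, and all 29 passed the filter on dim probes. Each was well above background in 32 of 32 channel measurements, so none of them passed through one group alone. F5, F11, F13b, C5 and C8g could not be matched and were not analysed here. The 29 genes stood among 20395 genes tested.

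Hepatocytes make most circulating clotting factors and complement proteins and secrete them into plasma. In coagulation, a chain of serine proteases ends in thrombin, which turns fibrinogen into fibrin. Serpins and the protein C pathway restrain the chain, and plasmin dissolves the clot. Complement starts through the classical, lectin or alternative route, converges on convertases that cleave C3 and C5, and ends in a membrane attack complex. Several coagulation proteases need vitamin K-dependent carboxylation before they work.

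Cultures of primary hepatocytes from male Sprague Dawley rats were kept in Williams Medium E. They received 100 µM SQ1, received 30 µM pravastatin or were left untreated, in each case starting 48 h after plating and lasting 48 h. SQ1 is the labels' code. Hepatocyte researchers use it for squalestatin 1, an inhibitor of squalene synthase, an enzyme of cholesterol synthesis. Pravastatin, a statin, inhibits HMG-CoA reductase at an early step of the same pathway. Each of 16 arrays held RNA of a treated and of an untreated culture in 2 dyes, with 8 arrays per drug and 4 in either dye orientation. The design text calls the 8 per group biological replicates. How many animals gave the cells is not given in the sources used here, and p-values measure only the spread between these arrays. Same-numbered arrays of the drugs carry the same control number, so the comparisons with untreated cells share controls and are given side by side. Each slide held arrays of 1 drug only, so drug and slide cannot be told apart in the values that set SQ1 against pravastatin.

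Drug names follow the sample labels and the scanner files. In the deposited table of processed values, columns labelled with one drug matched the other drug's arrays of that number, at correlations of 0.938 to 1.00 across probes. Their own arrays correlated at 0.422 to 0.562. If the table rather than the labels were right, the names of the drugs would be exchanged in every value below. The arrays had a median A555 signal of 588 to 663 over a background of 306 to 315. In the A647 channel the median was 790 to 1076 over 339 to 348, and 0 spots were saturated.

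With SQ1, 14 of the 15 coagulation genes and 13 of the 14 complement genes fell. A gene was called by limma where its adjusted p (Benjamini-Hochberg, all 20395 genes) was under 0.05. Of all 20395 genes, 31.2% fell and 32.7% rose under the same rule. C2 was the 1 gene of the 29 that rose, and F7 did not pass. With pravastatin, 12 of 15 coagulation genes and 10 of 14 complement genes fell, beside 19.7% of all genes, and C2 again rose, beside 19.4%. F7, Serpinf2, Kng1, C1s, C4bpa and C6 did not pass with pravastatin. A fall of at least 1.5-fold was seen for 17 of the 29 genes with SQ1, beside 4.43% of all genes. With pravastatin, 1 of the 29 genes, Serpind1, reached that size, beside 0.981% of all genes.

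The size of a change is given as the log2 ratio of treated over untreated RNA, fitted over all 16 arrays with a term for the dye. The median log2 ratio of the coagulation genes was -0.61 with SQ1 and -0.22 with pravastatin. For the complement genes it was -0.76 with SQ1 and -0.33 with pravastatin. The median of all genes tested was 0.01 with SQ1 and 0.00 with pravastatin. The ratios were below 0 on all 8 SQ1 arrays for 24 of the 29 genes, beside 20.7% of all genes. They were below 0 on all 8 pravastatin arrays for 19 of the 29, beside 11.7%. Cultures were measured in bulk, so fewer hepatocytes and less RNA of these genes per hepatocyte cannot be told apart.

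**Figure D1:**
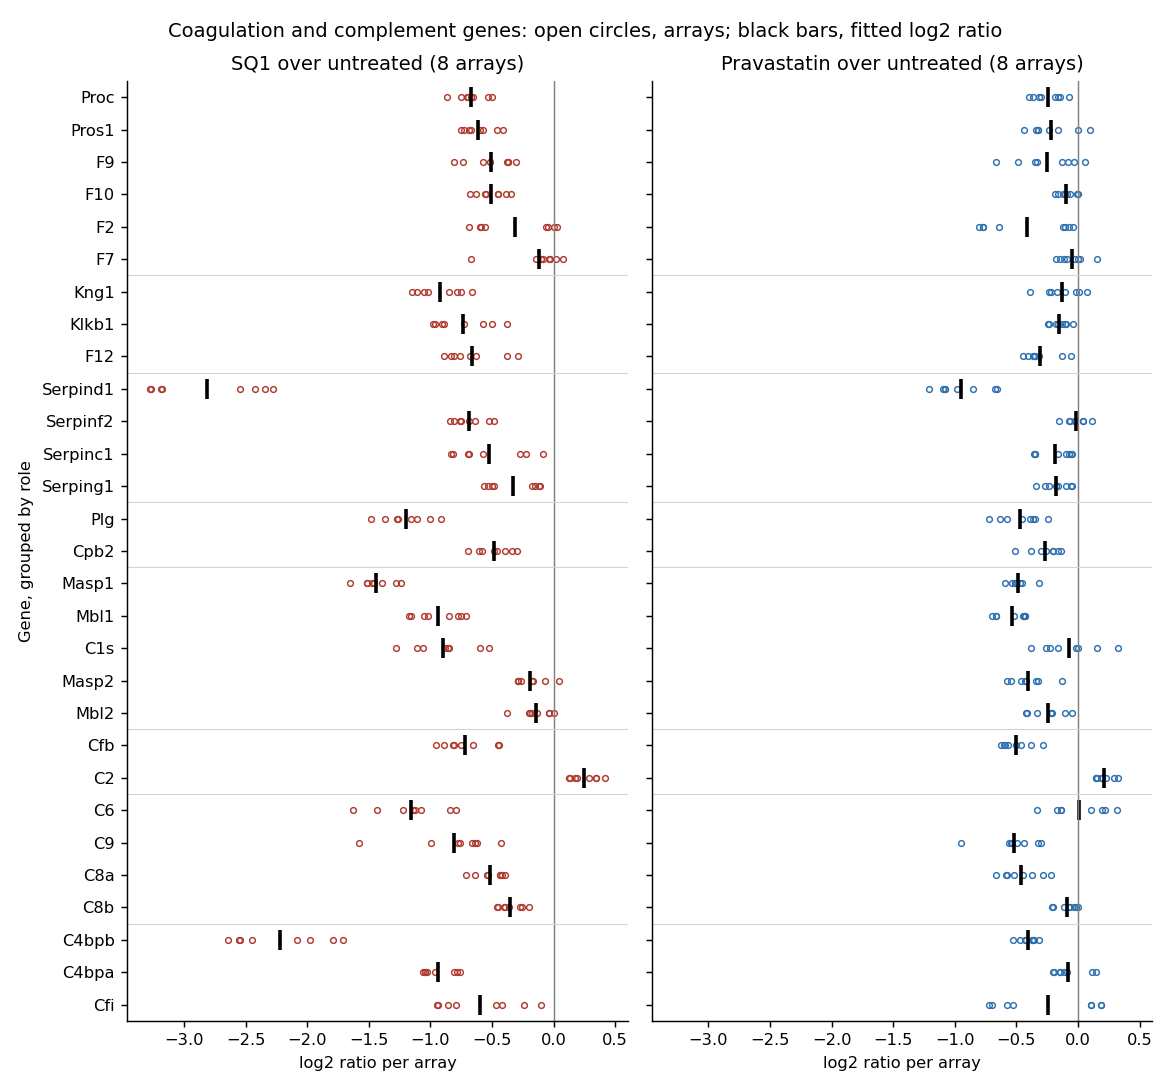
Log2 ratio of treated over untreated RNA for 29 coagulation and complement genes, SQ1 on the left and pravastatin on the right, with genes grouped by role between grey lines. Open circles are the 8 arrays per drug and black bars the fitted ratio. Serpind1 and C4bpb lie far to the left with SQ1 at -2.81 and -2.22, and C2 is the gene whose circles all lie right of 0 with both drugs.

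Among the vitamin K-dependent proteins, 5 of 6 fell with SQ1 and 5 of 6 with pravastatin. Beside this and the later counts by role, 31.2% of all genes fell with SQ1 and 19.7% with pravastatin. The anticoagulant protease precursor Proc had a fitted log2 ratio of -0.67 ± 0.04 (SE, n = 8 arrays) with SQ1 and -0.24 ± 0.04 with pravastatin. Its cofactor Pros1 had -0.61 with SQ1 and -0.22 with pravastatin. F9, the protease missing in haemophilia B, had -0.51 with SQ1 and -0.25 with pravastatin. F10, whose active form cleaves prothrombin, had -0.51 with SQ1 and -0.09 with pravastatin. F7, which starts the tissue factor route, had -0.12 ± 0.06 with SQ1 (adjusted p = 0.0807) and -0.05 ± 0.06 with pravastatin (adjusted p = 0.568). F10 and F7 are neighbours on chromosome 16 in the order of assembly GRCr8, and of this pair F10 alone passed the test.

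F2, the precursor of thrombin, was the gene of this group with the largest fall under pravastatin. Its array values ran from -0.69 to 0.02 with a median of -0.31 for SQ1, and from -0.80 to -0.04 with a median of -0.38 for pravastatin. The fitted log2 ratio was -0.31 ± 0.02 with SQ1 (adjusted p = 1.61e-09) and -0.42 ± 0.02 with pravastatin (adjusted p = 1.85e-10). The arrays of F2 fell into separate sets by dye. With the treated RNA in A555 the ratio was -0.69 to -0.55 for SQ1 and -0.80 to -0.64 for pravastatin. With the treated RNA in A647 it was -0.06 to 0.02 for SQ1 and -0.12 to -0.04 for pravastatin. Under median centring in place of loess, F2 had -0.08 with SQ1 (adjusted p = 0.104), and that call was lost.

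Of the contact system, 3 of 3 measured genes fell with SQ1 and 2 of 3 with pravastatin. F12, the protease that contact with a surface activates, had a fitted log2 ratio of -0.66 ± 0.05 with SQ1 and -0.31 ± 0.05 with pravastatin. Klkb1, plasma prekallikrein, had -0.74 ± 0.05 with SQ1 and -0.15 ± 0.05 with pravastatin (adjusted p = 0.0317). Kng1, the kininogen from which bradykinin is cut, had array values of -1.15 to -0.67 with a median of -0.93 for SQ1. For pravastatin they ran from -0.39 to 0.07 with a median of -0.14. The fitted ratio of Kng1 was -0.92 ± 0.05 with SQ1 (adjusted p = 5.27e-11) and -0.13 ± 0.05 with pravastatin (adjusted p = 0.0593). The pravastatin value of Kng1 lay near the threshold and passed in 6 of 27 other settings, among them the scan day as a term (adjusted p = 0.046). Over the 27 settings it ran from -0.20 to -0.04, and the highest adjusted p by limma was 0.53. The SQ1 arrays of Kng1 all lay below the pravastatin arrays. Rat kininogen genes are close copies of each other, so signal of Kng1 and Kng2 may be mixed; Kng2 had -0.99 with SQ1 and -0.17 with pravastatin.

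Of the serpins, all 4 fell with SQ1 and 3 of 4 with pravastatin. Serpind1, heparin cofactor II, which inhibits thrombin, had the largest change of the 29 genes with either drug. Its array values ran from -3.28 to -2.28 with a median of -2.86 for SQ1, and from -1.21 to -0.66 with a median of -1.03 for pravastatin. The fitted log2 ratio of -2.81 ± 0.11 with SQ1 is a 7.02-fold lower level (adjusted p = 1.75e-13). With pravastatin it was -0.95 ± 0.11, or 1.94-fold lower (adjusted p = 1.92e-06). Every array of either drug lay below 0 and the arrays of the drugs did not overlap.

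The other serpins changed less. Serpinc1, antithrombin, had a fitted log2 ratio of -0.52 ± 0.06 with SQ1 and -0.19 ± 0.06 with pravastatin (adjusted p = 0.0269). Serpinf2, alpha-2-antiplasmin, which blocks plasmin, had -0.69 ± 0.03 with SQ1 and -0.02 ± 0.03 with pravastatin (adjusted p = 0.592). Serping1, which inhibits contact proteases and also the first complement proteases, had -0.33 ± 0.05 with SQ1 and -0.18 ± 0.05 with pravastatin (adjusted p = 0.0154). Counting Serping1 with complement gave 14 of 15 complement genes lower with SQ1 and 11 of 15 with pravastatin.

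Both fibrinolysis genes fell with both drugs. Plg, plasminogen, had array values of -1.48 to -0.92 with a median of -1.21 for SQ1, and of -0.72 to -0.25 with a median of -0.42 for pravastatin. Its fitted log2 ratio was -1.20 ± 0.05 with SQ1, or 2.29-fold lower (adjusted p = 1.26e-13), and -0.47 ± 0.05 with pravastatin (adjusted p = 2.44e-07). The highest SQ1 array of Plg lay below the lowest pravastatin array. Cpb2, the carboxypeptidase that protects fibrin from plasmin, had -0.48 ± 0.04 with SQ1 and -0.27 ± 0.04 with pravastatin. The precursor of the clot-dissolving protease and both of its brakes among the 29 genes, Serpinf2 and Cpb2, were lower with SQ1.

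In complement recognition and initiation, all 5 genes fell with SQ1 and 4 of 5 with pravastatin. Masp1, a protease of the lectin route, had array values of -1.65 to -1.24 with a median of -1.46 for SQ1, and of -0.60 to -0.32 with a median of -0.51 for pravastatin. The fitted log2 ratio was -1.44 ± 0.04 with SQ1, or 2.71-fold lower (adjusted p = 9.90e-16), and -0.49 ± 0.04 with pravastatin (adjusted p = 1.65e-08). The arrays of the drugs did not overlap. A pair of dimmer Masp1 probes averaged -0.61 ± 0.16 and -0.40 ± 0.08 with SQ1 (SD, n = 8), and -0.27 ± 0.23 and -0.16 ± 0.10 with pravastatin. The direction was shared by all 3 probes and the size was not, and their mean had a fitted ratio of -0.82 with SQ1. By its brightest probe Masp1 had the third largest fall of the 29 genes with SQ1, and by the mean of its probes it stood behind Serpind1, C4bpb, Plg, C6, C4bpa, Mbl1, Kng1 and C1s.

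Mbl1, a mannose-binding lectin that binds sugars on microbes, had array values of -1.18 to -0.71 with a median of -0.93 for SQ1. For pravastatin they ran from -0.70 to -0.43 with a median of -0.48. The fitted log2 ratio was -0.94 ± 0.05 with SQ1 (adjusted p = 2.90e-11) and -0.54 ± 0.05 with pravastatin (adjusted p = 2.84e-07). Mbl2, the other mannose-binding lectin, changed less, with -0.14 ± 0.04 for SQ1 (adjusted p = 0.00794) and -0.25 ± 0.04 for pravastatin (adjusted p = 0.000213). Masp2, the lectin protease that cleaves C4, had -0.19 ± 0.04 with SQ1 and -0.41 ± 0.04 with pravastatin. Under median centring neither passed with SQ1, Mbl2 at -0.06 (adjusted p = 0.214) and Masp2 at -0.08 (adjusted p = 0.137). C1s, the corresponding protease of the classical route, had -0.89 ± 0.07 with SQ1 and -0.07 ± 0.07 with pravastatin (adjusted p = 0.487).

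The convertase proteases moved in opposite directions. C2, the protease of the classical and lectin C3 convertase, rose, with a fitted log2 ratio of 0.25 ± 0.03 for SQ1 (adjusted p = 1.04e-06) and 0.21 ± 0.03 for pravastatin (adjusted p = 3.27e-05). Its array values ran from 0.12 to 0.42 for SQ1 and from 0.14 to 0.32 for pravastatin, above 0 on 8 of 8 arrays of each drug. The second probe of C2 averaged 0.22 with SQ1 and 0.17 with pravastatin. Cfb, its counterpart in the alternative route, had array values of -0.95 to -0.44 with a median of -0.78 for SQ1. For pravastatin they ran from -0.62 to -0.29 with a median of -0.54. The fitted ratio of Cfb was -0.72 ± 0.05 with SQ1 (adjusted p = 4.93e-10) and -0.50 ± 0.05 with pravastatin (adjusted p = 3.24e-07). C2 and Cfb are neighbours on chromosome 20 in the order of assembly GRCr8.

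All 4 measured genes of the terminal pathway, which form the membrane attack complex, fell with SQ1, and 3 of 4 with pravastatin. C6 had array values of -1.63 to -0.80 with a median of -1.13 for SQ1, and of -0.33 to 0.32 with a median of -0.02 for pravastatin. The fitted log2 ratio of C6 was -1.16 ± 0.06 with SQ1, or 2.23-fold lower (adjusted p = 2.95e-12), and 0.01 ± 0.06 with pravastatin (adjusted p = 0.953). The pravastatin arrays of C6 fell into separate sets by dye, at 0.10 to 0.32 with treated RNA in A555 and -0.33 to -0.14 with treated RNA in A647. No SQ1 array of C6 reached the lowest pravastatin array. The pore-forming C9 had array values of -1.58 to -0.43 with a median of -0.71 for SQ1, and of -0.95 to -0.30 with a median of -0.52 for pravastatin. The fitted ratio of C9 was -0.81 ± 0.09 with SQ1 (adjusted p = 2.08e-07) and -0.52 ± 0.09 with pravastatin (adjusted p = 0.000122), and the arrays of the drugs overlapped. C8a and C8b, chains of 1 protein and neighbours on chromosome 5, had -0.51 and -0.35 with SQ1. With pravastatin C8a had -0.46 ± 0.05 and C8b had -0.09 ± 0.03 (adjusted p = 0.0339). A dimmer second probe of C8a averaged -0.31 ± 0.23 with SQ1 (SD, n = 8) and -0.39 ± 0.37 with pravastatin. It varied more between arrays, and the order of the drugs was the opposite.

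All 3 complement regulators fell with SQ1. C4bpa and C4bpb encode the alpha and beta chains of C4b-binding protein, a cofactor that helps Cfi cleave C4b; the beta chain also binds protein S, the product of Pros1. C4bpb had array values of -2.64 to -1.71 with a median of -2.27 for SQ1, and of -0.53 to -0.32 with a median of -0.40 for pravastatin. The fitted log2 ratio of C4bpb was -2.22 ± 0.08 with SQ1, or 4.65-fold lower (adjusted p = 1.34e-13), and -0.41 ± 0.08 with pravastatin (adjusted p = 0.000812). C4bpa had -0.94 ± 0.04 with SQ1 (adjusted p = 1.31e-12) and -0.08 ± 0.04 with pravastatin (adjusted p = 0.14). The largest SQ1 ratio of C4bpb, -1.71, lay below the smallest of C4bpa, -1.06. Cfi, the protease that inactivates C3b and C4b, had -0.60 ± 0.04 with SQ1 and -0.24 ± 0.04 with pravastatin. Like F2 it split by dye: for pravastatin its ratio was -0.73 to -0.53 with treated RNA in A555 and 0.10 to 0.19 with treated RNA in A647. In all, the dye orientations did not overlap for 4 of the 29 genes with SQ1 (F2, F10, Serpinf2 and Cfi), beside 14% of all genes. With pravastatin they did not overlap for 5 (F2, Serpinc1, Plg, C6 and Cfi), beside 13.8%. The fit has a term for the dye, and each orientation held 4 of the 8 arrays.

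The promoters of these chains are shown because the genes encode 1 protein and lie on 1 chromosome yet differed in size of response. Those of Plg and C6 are shown beside them as genes that were 2.29-fold and 2.23-fold lower with SQ1. The sequences are the 250 bases before the gene start from RefSeq, assembly GRCr8, written 5′ to 3′ on the strand of the gene. Capitals mark GTTAAT, a half-site of HNF1, and TTGCNNAA, a core of C/EBP sites, on either strand.
C4bpb, chr13:44683782-44684031, minus strand: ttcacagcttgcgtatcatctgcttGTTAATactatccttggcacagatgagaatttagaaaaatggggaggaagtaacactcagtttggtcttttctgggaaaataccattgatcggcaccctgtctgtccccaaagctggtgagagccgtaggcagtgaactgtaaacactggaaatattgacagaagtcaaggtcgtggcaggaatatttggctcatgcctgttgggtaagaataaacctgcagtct
C4bpa, chr13:44663472-44663721, minus strand: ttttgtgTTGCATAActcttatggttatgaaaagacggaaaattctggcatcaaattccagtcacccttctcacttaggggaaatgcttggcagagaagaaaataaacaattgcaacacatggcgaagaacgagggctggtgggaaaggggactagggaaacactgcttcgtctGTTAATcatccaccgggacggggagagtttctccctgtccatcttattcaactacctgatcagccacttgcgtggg
Plg, chr1:50915407-50915656, minus strand: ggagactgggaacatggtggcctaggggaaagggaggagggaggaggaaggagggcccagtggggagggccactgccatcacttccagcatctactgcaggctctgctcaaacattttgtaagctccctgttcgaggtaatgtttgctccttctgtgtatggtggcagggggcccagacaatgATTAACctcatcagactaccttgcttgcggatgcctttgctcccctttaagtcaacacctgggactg
C6, chr2:55573383-55573632, plus strand: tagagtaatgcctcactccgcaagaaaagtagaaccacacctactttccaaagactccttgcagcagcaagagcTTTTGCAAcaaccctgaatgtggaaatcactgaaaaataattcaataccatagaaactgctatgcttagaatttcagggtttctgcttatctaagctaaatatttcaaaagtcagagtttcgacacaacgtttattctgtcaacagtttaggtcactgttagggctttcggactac
C4bpb and Plg each held 1 HNF1 half-site, C6 held 1 C/EBP core and C4bpa held 1 of each. C4bpb also held 1 match of TGTTTAC, a core of FOXA sites, which is not in capitals. C4bpa, Plg and C6 held none. The promoters shown do not stand for all large falls. That of Masp1, with a log2 ratio of -1.44 with SQ1 by its brightest probe, held no match of these motifs and is not shown. The matched promoters of Cfi, F10, F7, Mbl1, Mbl2, Pros1 and Serpinf2 held no match either.

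Promoters of 21 of the 29 genes were matched, without Serpind1, Cpb2, Serping1, C1s, C2, C9, Cfb and Masp2. GTTAAT stood in 6 of the 21, or 28.6%, and in 6.46% of 27457 rat promoters of the same length. TTGCNNAA stood in 8 of the 21, or 38.1%, and in 9.2% of all promoters. TGTTTAC, a core of FOXA sites, stood in 3 of the 21, or 14.3%, against 3.25%. CAAAGTCCA, an HNF4 site, was in none of the 21 windows and in 0.331% of all. An exact match so rare would seldom appear in 21 windows, so its absence says little about HNF4 sites. TATAAA, the TATA box, was in none of the 21 and in 13.1% of all. Both strands were searched, a promoter was counted once per motif, and matches of different motifs were allowed to overlap. The members were not matched to other promoters for base content, and a match of letters is a description of sequence only.

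With Serping1 counted among the coagulation genes, the complement list had the lower median on every array. The median over the complement genes minus that over the coagulation genes was -0.25 to -0.08 on the 8 SQ1 arrays and -0.18 to -0.05 on the 8 pravastatin arrays. The list medians of the arrays themselves ran from -0.73 to -0.46 for coagulation and from -0.97 to -0.58 for complement with SQ1. With pravastatin they ran from -0.32 to -0.14 for coagulation and from -0.43 to -0.27 for complement. The gap between the lists depended on where Serping1 was counted, a choice tried after seeing the data. Over the fitted ratios, complement minus coagulation was -0.15 with SQ1 and -0.11 with pravastatin. With Serping1 moved to complement it was -0.087 with SQ1 and -0.014 with pravastatin. The complement median was then the lower on 7 of 8 arrays of each drug, with gaps of -0.21 to 0.0035 for SQ1 and -0.17 to 0.067 for pravastatin. For SQ1 over pravastatin the order was the opposite, with a median of -0.39 for coagulation and -0.32 for complement. That order did not hold in every setting. Within the second scan day alone the medians were -0.42 for coagulation and -0.47 for complement. Without pravastatin replicate 2 they were -0.35 for coagulation and -0.37 for complement.

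**Figure D2:**
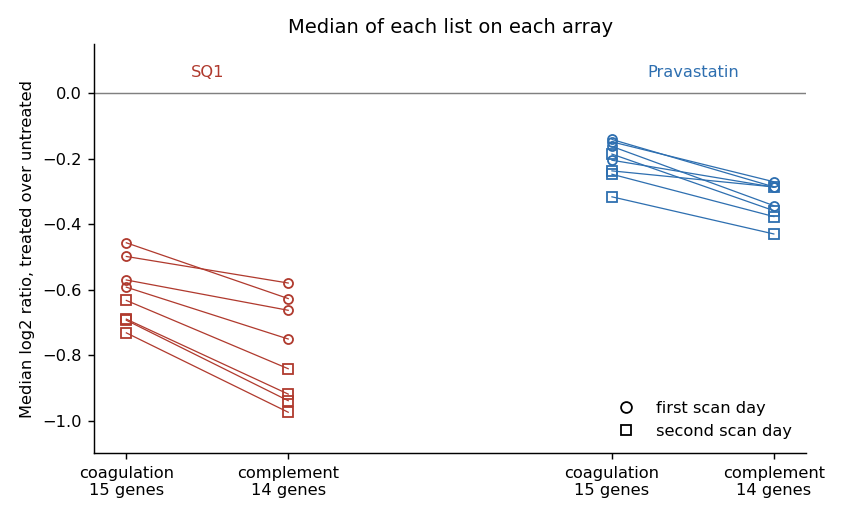
Median log2 ratio of treated over untreated RNA on each array over 15 coagulation and 14 complement genes, SQ1 on the left in red and pravastatin on the right in blue. Lines join the medians of 1 array, circles mark the first scan day and squares the second. The complement median is the lower end of all 16 lines, with Serping1 among the coagulation genes, and the SQ1 squares lie below the SQ1 circles.

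The arrays were scanned on 2 days, with 4 arrays of either drug on each, and the days also separate the control numbers of the cultures. With SQ1, 27 of the 29 genes had a lower fitted ratio on the second day than on the first, beside 50.4% of all genes. With pravastatin 23 did, beside 51.2%. The sign was the same on both days for 28 genes with SQ1 and 26 with pravastatin. For all genes this share was not computed, so the count is not read as a trait of the members. Fitted within a day, 25 of 29 genes fell with SQ1 on the first day, beside 24.6% of all genes, and 28 on the second, beside 30.7%. With pravastatin 18 fell on the first day, beside 10.4%, and 22 on the second, beside 21.6%, so more genes were called on the second day among all genes as well. On the first day alone, Masp2 and Mbl2 did not pass with SQ1, and F9, F10, Pros1, Serpinc1, Klkb1 and C8b did not pass with pravastatin, while Kng1 and C4bpa did. On the second day F7 fell with SQ1, at -0.25 (adjusted p = 0.0133). Serpind1 had -2.40 on the first and -3.23 on the second day with SQ1, and C4bpb had -1.89 on the first and -2.55 on the second. The difference between the days was not tested, and scan day, slide and culture cannot be told apart.

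The drugs were set against each other although their doses differed, 100 µM SQ1 against 30 µM pravastatin, so the differences describe these treatments and not the compounds at equal dose. SQ1 over pravastatin, 12 of 15 coagulation genes and 9 of 14 complement genes were lower, beside 19.5% of all genes. F2 and Masp2 were higher, beside 18.5%. The 29 comparisons were adjusted over all genes tested. The ratios of the drugs' arrays did not overlap for 13 of the 29 genes, beside 11.2% of all genes. SQ1 lay below pravastatin on all 8 same-numbered arrays for 20 of the 29, beside 17.1%.

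The largest differences were those of Serpind1, C4bpb and C6. SQ1 over pravastatin, Serpind1 had a log2 ratio of -1.86 ± 0.15, or 3.63-fold lower (adjusted p = 3.12e-08). C4bpb had -1.81 ± 0.12, or 3.50-fold lower (adjusted p = 1.57e-09). C6 had -1.16 ± 0.08 (adjusted p = 1.87e-09), with same-numbered differences of -1.33 to -0.90. Masp1 had -0.95 ± 0.05 by its brightest probe and -0.51 as the mean of its probes, which is a smaller difference than those of the next 4 genes. C4bpa had -0.85 ± 0.06, C1s had -0.82 ± 0.10, Kng1 had -0.79 ± 0.08 and Plg had -0.73 ± 0.06. In all, 10 genes were at least 1.5-fold lower with SQ1 than with pravastatin, beside 2.27% of all genes.

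Masp2 was higher with SQ1 than with pravastatin, at 0.22 ± 0.06 (adjusted p = 0.00801), and above 0 on 8 of 8 same-numbered arrays. F2 was higher by 0.10 ± 0.03 (adjusted p = 0.0215), also on 8 of 8. Within a scan day the difference of F2 did not pass on either day, with adjusted p-values of 0.207 and 0.0791, nor that of Masp2 on the first, with an adjusted p of 0.174. For 6 genes the difference did not pass. The 95% interval of the log2 ratio was -0.25 to 0.10 for F7, -0.32 to 0.01 for Serping1 and -0.19 to 0.08 for C8a. With the scan day as a term Serping1 passed (adjusted p = 0.0429). Within the days it had -0.33 on the second (adjusted p = 0.00166) and 0.02 on the first (adjusted p = 0.816). The interval was -0.05 to 0.13 for C2 and -0.03 to 0.23 for Mbl2. For C9 it was -0.55 to -0.03, with an adjusted p of 0.0752. With the replicate number as a block C9 passed, at an adjusted p of 0.0291 as a random block and 0.0448 as a fixed one. Under median centring the differences of Cpb2 and Cfb no longer passed, with adjusted p-values of 0.0847 and 0.241.

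**Figure D3:**
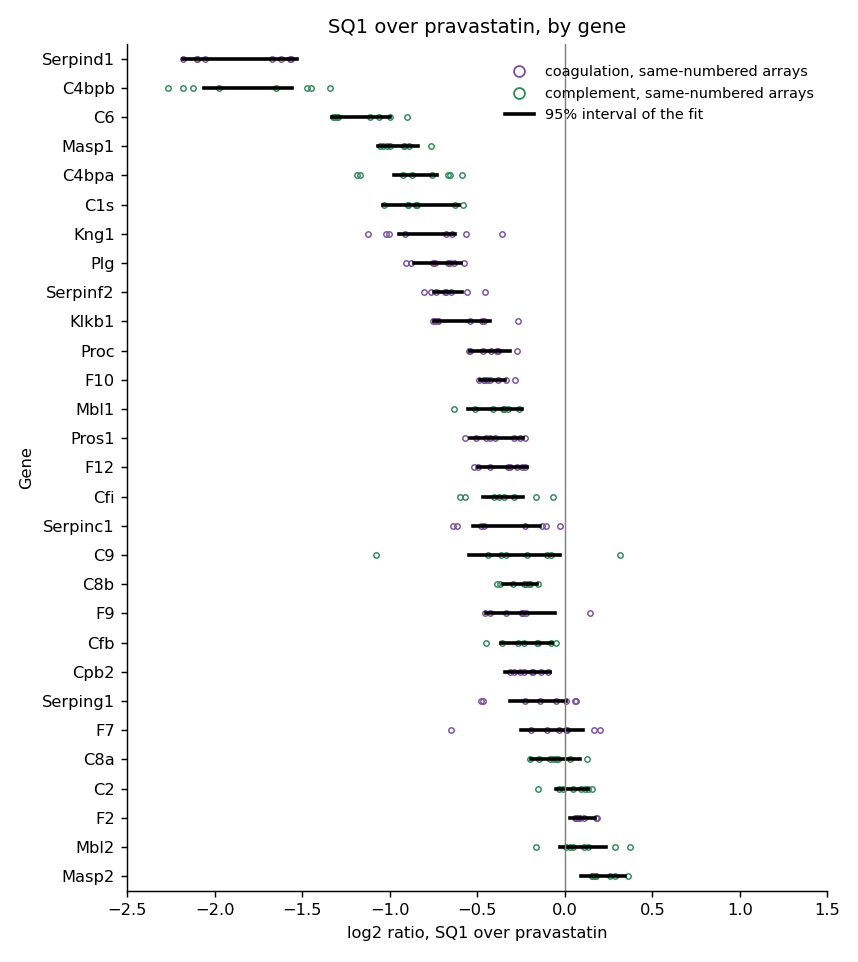
Log2 ratio of SQ1 over pravastatin for 29 genes, ordered from the lowest. Open circles are the 8 differences of same-numbered arrays, purple for coagulation and green for complement, and black lines the 95% interval of the fit. The fit does not pair the arrays. Serpind1, C4bpb and C6 stand at -1.86, -1.81 and -1.16, and at the other end Masp2 at 0.22 is followed by Mbl2 and F2, both at 0.10, of which Mbl2 did not pass the test.

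Other genes of the pathways were read from lists of their own. Beside their counts, 31.2% of all genes fell and 32.7% rose with SQ1. With pravastatin 19.7% of all genes fell and 19.4% rose. Of 29 measured coagulation genes outside the 34, 22 fell and 4 rose with SQ1, and 16 fell and 2 rose with pravastatin. The fibrinogen chains Fga and Fgb had log2 ratios of -1.22 ± 0.06 and -1.42 ± 0.04 with SQ1, and -0.42 ± 0.06 and -0.44 ± 0.04 with pravastatin. Serpina5, the protein C inhibitor, had -1.92 ± 0.10 with SQ1 and -0.89 ± 0.10 with pravastatin. Hrg, a plasma glycoprotein that binds plasminogen and heparin, had -1.74 ± 0.06 with SQ1 and -0.81 ± 0.06 with pravastatin. The substrate of thrombin and a further serpin were therefore among the genes that fell with both drugs.

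Of 26 measured complement genes outside the 34, 18 fell and 4 rose with SQ1, and 15 fell and 3 rose with pravastatin. Among all genes, 31.2% fell with SQ1 and 19.7% with pravastatin. The list is not one of hepatocyte genes only, and C1qa, C1qb and C1qc are counted again among the macrophage markers below. With pravastatin 7 of the 26 were at least 1.5-fold lower, against 0 of the 14 complement genes above and 0.981% of all genes. Vtn, vitronectin, which blocks the membrane attack complex, had -1.17 ± 0.04 with SQ1 and -0.48 ± 0.04 with pravastatin. Crp, a pentraxin that can start the classical route, went the other way, with 1.14 ± 0.07 for SQ1 (adjusted p = 1.55e-10) and 0.18 ± 0.07 for pravastatin (adjusted p = 0.0517).

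Of 11 measured genes of the vitamin K cycle and factor secretion, 7 fell and 1 rose with SQ1, and 4 fell and 2 rose with pravastatin. Beside this list and the transcription factors below, 31.2% of all genes fell and 32.7% rose with SQ1. With pravastatin 19.7% of all genes fell and 19.4% rose. Vkorc1, the vitamin K epoxide reductase that warfarin inhibits, is named here after its values were seen. It had -0.77 ± 0.06 with SQ1 (adjusted p = 8.98e-10) and 0.32 ± 0.06 with pravastatin (adjusted p = 0.000147). All 8 SQ1 arrays of Vkorc1 lay below 0 and all 8 pravastatin arrays above it. Its paralogue Vkorc1l1, named on the same footing, rose with both drugs, at 0.66 ± 0.04 with SQ1 (adjusted p = 2.00e-11) and 0.56 ± 0.04 with pravastatin (adjusted p = 1.04e-09). Of 20 liver transcription factors, 16 fell and 2 rose with SQ1, and 11 fell and 2 rose with pravastatin. Foxa1, a forkhead factor of liver genes, had -1.44 ± 0.06 with SQ1 and -0.33 ± 0.06 with pravastatin. Nr1h4, the bile acid receptor FXR, had -1.38 ± 0.08 with SQ1 and -0.65 ± 0.08 with pravastatin. Its target Nr0b2 had -0.66 ± 0.15 with SQ1 and -1.54 ± 0.15 with pravastatin.

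**Figure D4:**
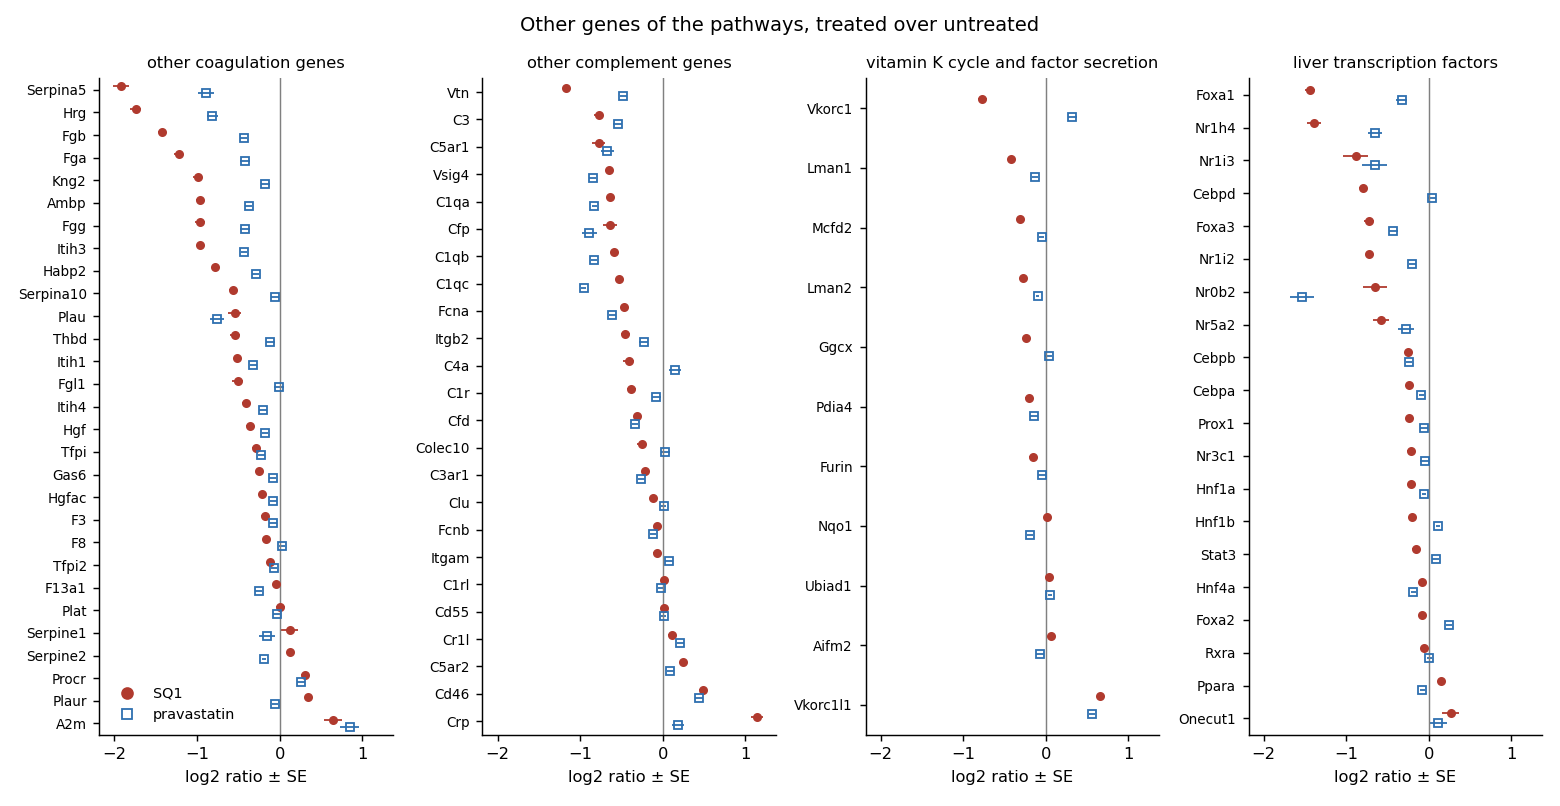
Fitted log2 ratio of treated over untreated RNA with its SE for other genes of the pathways, SQ1 as filled red circles above pravastatin as open blue squares, in 4 panels, without 2 complement genes that are not reported here. Most points lie left of 0; Crp at 1.14 with SQ1 lies at the right, and for Vkorc1 the circle is left of 0 and the square right of it.

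Markers of cell types moved beside the members, and their part in the results was not tested. Beside the marker counts, 31.2% of all genes fell and 32.7% rose with SQ1. With pravastatin 19.7% of all genes fell and 19.4% rose. All 12 hepatocyte markers, albumin among them, were measured and fell with SQ1, with a list median of -0.96 to -0.26 over the arrays; 9 fell and 2 rose with pravastatin, with a list median of -0.50 to -0.01. All 15 macrophage markers fell with both drugs, with a list median of -0.69 to -0.39 for SQ1 and -0.94 to -0.61 for pravastatin. Of the 10 measured markers of stellate cells and fibroblasts, 10 fell with SQ1 and 4 with pravastatin. Of the 5 endothelial markers measured, 4 fell with SQ1 and 1 with pravastatin. Of 6 cholangiocyte markers 3 fell and 1 rose with SQ1, and 1 fell and 3 rose with pravastatin. Of 6 platelet markers 1 fell and 1 rose with SQ1, and 2 fell and 2 rose with pravastatin.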

How the data were processed

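RNA of 16 pairs of treated and untreated cultures was measured on 2-colour arrays. Spots were read with Agilent Feature Extraction 10.7.1.1 on a design annotated to rn4, per the file headers. In the deposited files each spot has a median intensity and a local background intensity in A555 and A647. Per the file headers, they also hold processed intensities, after background removal and dye normalisation, and the log10 ratio of these. A deposited table gives log2 ratios of treated over untreated; it was used only to check labels, since its columns matched the other drug.

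Computation used limma 3.58.1 in R 4.3.3, with jsonlite 2.0.0, statmod 1.5.0 and version 1.17.8 of the data.table package. Intensities were corrected by normexp with an offset of 50, then by loess within arrays, fitted without control spots. Non-uniform spots were left out and spots of a probe averaged. A probe was kept if 6 or more of the 32 channels had it well above background, and the brightest probe on average represented its gene. Probes were named through RefSeq, assembly GRCr8, which named 17998 of 30367, and 20395 genes were tested. The files state rn4, so GRCr8 coordinates are given for RefSeq promoters only. A linear model held a term for each drug and for the dye over all 16 arrays. Tests were two-sided, with a Benjamini-Hochberg adjusted p threshold of 0.05. On simulated data for SQ1 over untreated, 90 of 93 genes changed by 0.5 on the log2 scale and 107 of 107 changed by 1 were recovered, with 11 false calls. The simulated noise was independent between arrays. In the data, arrays correlated at 0.394 within a replicate number and 0.196 within a slide. Smaller changes were not simulated, so the check covers neither correlated arrays nor such changes.

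Residuals correlated between same-numbered arrays in all 8 pairs, at 0.139 to 0.629. In 4 of the 8 pairs both arrays correlated best with each other, and in the other 4 an array of another number correlated better with at least 1 of them. The replicate number is taken to pair the arrays, since control numbers in the scanner file names give the pairing and all 8 correlations were positive. The main fit held no term for it, so its SEs, intervals and adjusted p-values for SQ1 over pravastatin do not use the pairing. With the replicate number as a random block, 9750 genes were called in SQ1 over pravastatin, against 7760 in the main fit. Alternatives were processed signals, median centring, other filters, the mean of probes, the replicate number, slide or scan day in the model, each scan day alone and each array left out. The members and gene lists were chosen with earlier results of these data known. By rule, array values are given for the 3 members of each list with the largest called change per drug or difference between drugs, and other pathway genes are named if called with a log2 ratio of at least 1 in size. Of the latter, 2 complement genes are counted but not reported here by name. The number of arrays limits the precision.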

Additional observations from a re-analysis of the deposited data

Results flagged for a closer look

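In 2 of 58 sets of 8 arrays, 1 array stood far from the other 7 by Dixon's criterion, where chance marks about 1 in 20 sets. SQ1 replicate 8 had a log2 ratio of -0.670 for F7. Without it the fitted ratio of F7 with SQ1 was -0.04, against -0.12 over all 8 arrays, and F7 passed the test in neither case. Pravastatin replicate 2 had a log2 ratio of -0.953 for C9. Without it the fitted ratio of C9 with pravastatin was -0.44, against -0.52, and C9 stayed called. SQ1 over pravastatin, C9 then had -0.37 with an adjusted p of 0.0131 by limma and passed, which it did not over all arrays.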

How the results depend on the processing

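Under 11 other settings and with each of 16 arrays left out, the counts of genes called lower stayed within 1.5 times their values in the report. Coagulation genes called higher in SQ1 over pravastatin were 0, in place of 1, with processed signals, with slide as a random block and within the first or the second scan day. The complement count of that kind was 0, in place of 1, within the first scan day. With arrays left out, coagulation genes called lower numbered 14 to 15 with SQ1, 10 to 13 with pravastatin and 11 to 12 for SQ1 over pravastatin. Complement genes called lower numbered 13 with SQ1, 9 to 10 with pravastatin and 9 to 10 for SQ1 over pravastatin. With the replicate block, random or fixed, 10 complement genes were lower in SQ1 over pravastatin, against 9, and no other count of members changed; the gene gained was C9. Median centring in place of loess gave medians of -0.49 for coagulation and -0.59 for complement with SQ1, and called 9 coagulation genes lower with pravastatin. Masp1 fell by 0.82 on the log2 scale with SQ1 as the mean of its probes.

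The sign turned in 16 cases, none called. F7 with SQ1 had 0.00763 within the first day. For SQ1 over pravastatin F7 had 0.0356 within the first day, and -0.0995 to 0.00671 with SQ1 arrays left out, the highest without SQ1 replicate 8. Serping1 had 0.0202 within the first day, and C8a had 0.0102 under median centring and 0.0127 with the mean of probes. With pravastatin, median centring gave 0.0158 for Serpinf2, 0.0101 for C1s and 0.0149 for C4bpa. Serpinf2 had 0.0137 within the second day and C1s 0.0196 within the first. C6 with pravastatin had -0.00694 with processed signals, -0.0436 within the second day, and -0.0142 to 0.0293 with arrays left out, below 0 without pravastatin replicates 1, 5 or 8. The calls lost most often were F9 for SQ1 over pravastatin, in 13 settings, and with pravastatin Serpinc1 in 9, Klkb1 in 8 and C8b in 7. Calls were gained for C9 in SQ1 over pravastatin and for Kng1 with pravastatin in 6 settings each, for F7 with SQ1 and Serping1 in SQ1 over pravastatin in 2 each, and for C4bpa with pravastatin in 1. The cause was not tested.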
